A study of Mus musculus with 15 samples.

Results

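Mouse genomes carry the remains of DNA transposons, and their reads were followed here in total RNA of embryonic stem cells (ESCs) depleted of TET1 or TET2. A repeat class pools the reads of all annotated copies of 1 element. Classes were taken by name, as those that begin with Charlie, Tigger, URR1, MARNA, Arthur, Cheshire, Kanga, Looper, Zaphod, ORSL, Ricksha or Zombi, and the rule itself uses no measured value, although the group was proposed with earlier results of these data known. The rule found 80 of the 1217 classes in the repeat table, and none of them was a Zombi class. Of these, 79 had reads in at least 5 of the 15 libraries and were tested together with all 1187 classes that met this condition. The one left out, Ricksha_b, averaged 0.467 reads per library.

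The study asked how TET enzymes, which oxidise methylated cytosine in DNA, bear on the expression of repeats. All cells were E14, a mouse ESC line of 129/Ola background, grown in serum with LIF on gelatin, without feeder cells. Each cell population had received a lentiviral pLKO.1 vector and 3 days of puromycin selection. By the labels, the groups differed in the short hairpin RNA, with 5 libraries each. It was a non-targeting sequence (shScr), 1 hairpin against Tet1 (shTet1) or 1 hairpin against Tet2 (shTet2). An effect of a hairpin itself cannot be told apart from that of the depleted TET. The labels name QIAzol or a Zymo kit for RNA extraction without assigning them to libraries, while the study's methods name the Zymo kit, with DNase treatment, and give QIAzol for small RNA libraries. Libraries were directional and depleted of rRNA. The labels do not say that replicates were separate cultures, so p-values measure the spread between these libraries.

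DNA transposons move by cut and paste: a transposase binds the terminal inverted repeats of the element, excises it and inserts it elsewhere. Many families consist of short non-autonomous copies that lack a transposase gene and depended on the enzyme of a relative. No DNA transposon is known to be active in the mouse, so that copies are fossils, and they reach RNA mostly as part of introns, untranslated regions and other transcribed DNA. Charlie, Cheshire and URR1 belong to the hAT-Charlie group, and URR1 is a non-autonomous element of rodents. Arthur, ORSL and Zaphod are hAT elements of the Tip100 group. Tigger elements are relatives of pogo, MARNA is a mariner, Kanga belongs to the Tc2 group, Looper to piggyBac and Ricksha to the MULE-MuDR group. These groupings are general knowledge of repeat nomenclature and are not given in the table.

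Each library held 15258291 to 35432425 gene reads and 7476759 to 19985961 reads of repeat classes. Both hairpins lowered their target, with a Tet1 difference of −1.84 in shTet1 and a Tet2 difference of −1.90 in shTet2 on the log2 scale, and no overlap of the groups (exact permutation p = 0.00794 for each). Genes that mark ESCs (8 of 8 listed, Pou5f1 among them) together held 3977 to 6510 reads per 1000000 gene reads, against 6.14 to 28.9 for 6 primitive endoderm markers, 1.53 to 8.68 for 4 trophoblast markers and 2.96 to 10.1 for 5 fibroblast markers. In bulk RNA, fewer cells of a type and less RNA per cell cannot be told apart. As a measure of scattered reads, 1451 genes of smell and pheromone receptors (olfactory and vomeronasal) were summed, since stem cells have no known use for them. They held 54.5 to 64.7 reads per 1000000 gene reads in 4 libraries (shScr replicate 4, shTet1 replicates 3 and 4, shTet2 replicate 4) and 11.1 to 26.5 in the other 11. Comparisons were repeated within replicates 1 and 2 and within replicates 3 to 5, a split that the labels do not name as a batch.

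The 80 classes together held 42163 to 106544 reads per library, which was 0.488% to 0.778% of the reads in repeat classes. URR1B and URR1A led, with 12638 and 11649 reads per library on average, followed by Tigger7 with 4866, Tigger5 with 2725 and Charlie1a with 2610. MARNA had 1638, Tigger1 1470, Kanga11a 1415, Charlie1 1342 and Ricksha_c 1310 reads. Reads were concentrated in few classes. The 13 classes over 1000 reads held 75.9% of the total, and 37 classes between 100 and 1000 reads held a further 21.6%. A group of 28 classes lay between 10 and 100 reads, and 2, Cheshire_Mars and Ricksha_b, lay below 10. Read counts of different classes are not levels per copy, because the number and length of the copies are not in the files.

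By family, 38 hAT-Charlie classes took 65.1% of these reads, 19 TcMar-Tigger classes 23.1%, 7 TcMar-Tc2 classes 3.91%, MARNA 2.75%, 5 MULE-MuDR classes 2.48%, 9 hAT-Tip100 classes 2.17% and Looper 0.492%. Both URR1 classes alone took 40.8%. This share varied little, between 37.9% and 42.3% over the libraries, with a 95% Wilson interval of at most ±0.463 percentage points that covers counting error alone. Replicate 5 of each group (38.0%, 37.9% and 38.9% in the order of the groups above) and shScr replicate 3 (38.4%) had the lowest shares, and the other 11 libraries were at 40.7% or more. URR1B exceeded URR1A by 0.03 to 0.28 on the log2 scale in every library, so the balance of this pair moved by less than the level of either. The smaller families varied more in their share. MULE-MuDR classes went from 1.18% of the reads in shScr replicate 2 to 4.26% in shTet1 replicate 5, and MARNA from 2.02% in shTet2 replicate 3 to 3.91% in shTet1 replicate 5. TcMar-Tc2 classes went from 2.55% in shScr replicate 4 to 4.91% in shTet1 replicate 5. That library, the lowest in DNA transposon reads, thus had the highest share of 3 small families and the lowest of hAT-Charlie (61.6%).

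In shScr, replicates 1 to 5 had 2.85, 3.22, 2.36, 3.75 and 2.03 DNA transposon reads per 1000 gene reads. The shTet1 libraries had 2.22, 2.10, 3.30, 3.33 and 1.96, and the shTet2 libraries 2.22, 2.22, 3.31, 3.01 and 2.39. Group means were thus 2.84 ± 0.681 for shScr, 2.58 ± 0.677 for shTet1 and 2.63 ± 0.50 for shTet2 (mean ± SD of 5 libraries). The groups overlapped throughout and differed by less than their SDs. Between libraries of the same number, shTet1 minus shScr was −0.630, −1.12, 0.943, −0.422 and −0.0702 reads per 1000 for replicates 1 to 5, so 4 of 5 pairs were lower in shTet1 and replicate 3 was higher. The corresponding values for shTet2 minus shScr were −0.631, −0.999, 0.946, −0.741 and 0.358, with 3 of 5 lower. Within replicates 1 and 2, the shTet1 mean was 0.712 and the shTet2 mean 0.731 of the shScr mean. Within replicates 3 to 5 these ratios were 1.06 and 1.07. Both rest on replicate 3, since replicate 4 was lower in both depletions and replicate 5 was higher in shTet2 only. The 4 libraries with most receptor reads ranked 1, 2, 4 and 6 among the 15 in DNA transposon reads. Without them, the ratios to shScr were 0.80 in shTet1 and 0.969 in shTet2. With the receptor share as a covariate in limma, 0 of 79 classes were called in each comparison (0.337%, 0% and 0.842% of all classes), and the median difference of the classes was −0.20 in shTet1 and −0.17 in shTet2, against −0.11 and −0.10 over all classes. Without the covariate these medians were −0.15 and −0.08, against −0.06 and 0.04.

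**Figure D1:**
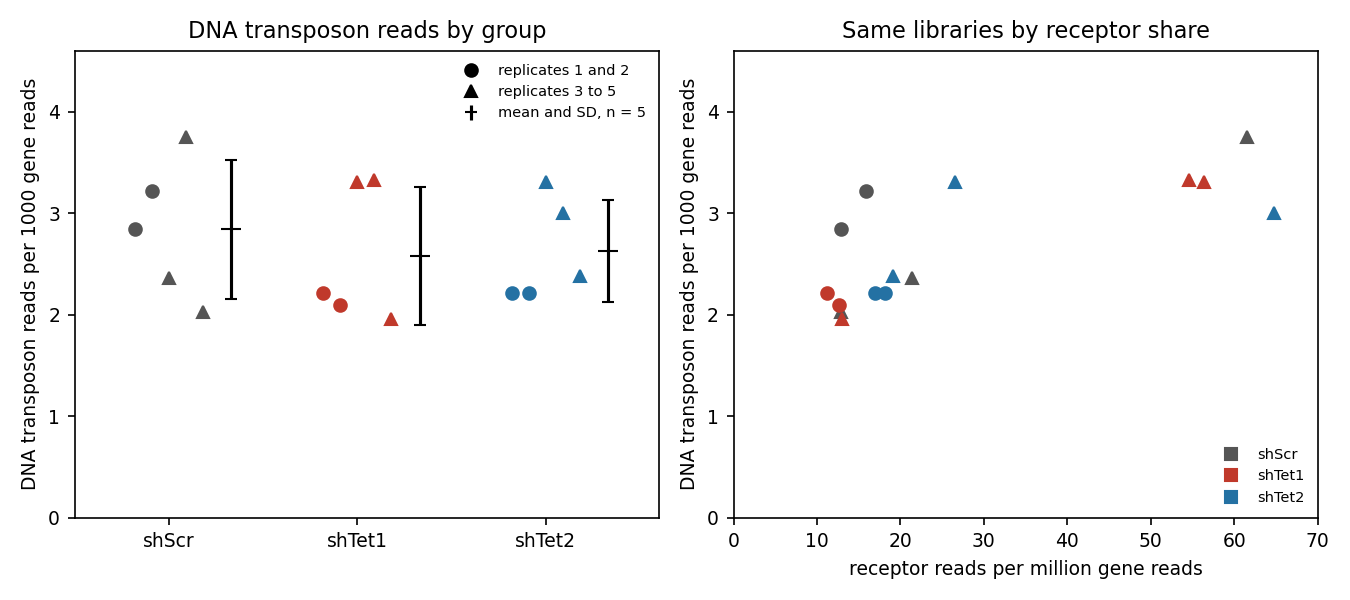
Reads in the 80 DNA transposon classes per 1000 gene reads in each library, by group (left, with mean and SD of 5 libraries) and against receptor reads per 1000000 gene reads (right). Circles are replicates 1 and 2 and triangles replicates 3 to 5. The groups overlap, and all 4 libraries over 50 receptor reads lie at 3.01 or more.

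To ask whether TET1 depletion changes RNA from these fossils, each class was compared between shTet1 and shScr on the deposited log2-scale values. None of the 79 classes passed a Benjamini-Hochberg adjusted p of 0.05 in limma, as was the case for all 1187 classes (0% called). At an unadjusted p under 0.05 there were 0 of 79, against 0.842% of all classes, and no member had groups that did not overlap (0.0842% of all classes in either direction). The median difference was −0.15 over the 79 classes and −0.06 over all classes, and 65 of the 79 had a lower mean in shTet1, against 61.4% of all classes. The split depended on the scaling, with 57 lower when each library was centred on the median of all classes (50.6% of all classes), and 55 lower when values were scaled to the repeat reads of each library (46.6%). Within replicates 1 and 2, 75 classes had a lower mean in shTet1 (median difference −0.46), and within replicates 3 to 5 only 25 did (median 0.07). All classes turned in the same way, with 84.2% and 15.6% lower.

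The 4 hAT-Charlie classes with most reads had lower means in shTet1 by less than their spread. URR1B was at 13.79, 13.92, 13.38, 14.11 and 13.15 in shScr replicates 1 to 5. In shTet1 it was at 13.39, 13.37, 13.95, 13.91 and 13.16. Replicates 1 and 2 were thus lower than in shScr, replicate 3 higher, replicate 4 lower and replicate 5 alike, and the difference was −0.11 (SE 0.23, 95% confidence interval −0.60 to 0.37). URR1A differed by −0.15 (SE 0.25), Charlie1a by −0.16 (SE 0.26) and Charlie1 by −0.26 (SE 0.24). Cheshire, a non-autonomous relative, differed by −0.15 (SE 0.27). Of the 38 hAT-Charlie classes, 35 had a lower mean in shTet1 and the median difference was −0.14.

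Charlie15a and Charlie20a, both under 100 reads, marked the ends of the hAT-Charlie range. The values of Charlie15a were 6.42, 5.92, 5.97, 7.04 and 5.70 in shScr and 6.62, 6.09, 6.53, 7.28 and 6.09 in shTet1. Each shTet1 library was above the shScr library of the same number, but the groups overlapped, and the difference of 0.31 (SE 0.30) did not pass. For Charlie20a they were 6.52, 6.67, 5.80, 6.99 and 6.09 in shScr and 5.73, 5.93, 6.43, 6.56 and 5.36 in shTet1, a difference of −0.41 (SE 0.32). Charlie4z differed by 0.08 and Charlie9 by −0.03, well inside their SEs, and Charlie7a by less than 0.01.

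Among the 19 Tigger classes, descended from pogo-like elements with a transposase of their own, 15 had a lower mean in shTet1 and the median difference was −0.20. Tigger7 was at 12.26, 12.58, 12.08, 12.85 and 11.82 in shScr and at 11.80, 11.79, 12.62, 12.66 and 11.84 in shTet1. Its shTet1 values formed a pair at 12.6 to 12.7 and a trio at 11.8, within the shScr range and at its lower edge, and the difference was −0.18 (SE 0.27). Tigger5 differed by −0.24 (SE 0.24) and Tigger1 by −0.37 (SE 0.31). Tigger12A had the lowest difference of the family (−0.50, SE 0.35, 95% confidence interval −1.25 to 0.24) and Tigger12c the highest (0.24, SE 0.29). Tigger11a differed by −0.33 (SE 0.34).

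The hAT-Tip100 classes had a median difference of −0.21, with 7 of 9 lower. ORSL-2a, the lowest of all 79, was at 4.95, 5.56, 5.21, 6.18 and 5.24 in shScr and at 4.34, 4.54, 5.08, 5.88 and 4.70 in shTet1. All 5 shTet1 libraries were below the same-numbered shScr library, yet the groups overlapped, and the difference was −0.52 (SE 0.30, 95% confidence interval −1.16 to 0.11). ORSL-2a rested on 30.2 reads per library. Arthur1C differed by −0.49 (SE 0.34), Zaphod by −0.36 (SE 0.34), ORSL by −0.24 (SE 0.27) and Arthur1 by −0.21 (SE 0.46). Of the smaller families, Kanga11a differed by 0.02, Kanga1a by −0.30, Looper by −0.14, MARNA by −0.21 and Ricksha_c by 0.15, with SEs of 0.17 to 0.33. The 95% intervals of all 79 classes included 0, and those of 63 lay within 1 log2 unit of it. The half-width of these unadjusted intervals was 0.62 at the median, and a shift had to exceed the half-width of its own class, and by more than for a single test, to pass the adjusted threshold.

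In TET2-depleted ESCs, compared with the same shScr libraries, 0 of 79 classes again passed the adjusted threshold in limma (0% of all classes called). The median difference was −0.08, against 0.04 over all classes, and 48 of the 79 had a lower mean, against 39.3% of all classes. Centring on the median of all classes gave 58 lower (56.4% of all classes), and scaling to the repeat reads gave 74 (71.0%). Within replicates 1 and 2, 74 classes were lower in shTet2 (median −0.41), and within replicates 3 to 5, 15 were (median 0.16). Of all classes, 79.2% and 12.7% were lower. As in the comparison above, the shScr libraries of replicates 1 and 2 were higher than their counterparts.

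Charlie6, a hAT element with 1193 reads per library, was the single class with an unadjusted p under 0.05, against 1.26% of all classes. It was at 10.27, 10.19, 10.56, 10.42 and 10.48 in shScr and at 10.08, 10.13, 9.74, 10.13 and 9.88 in shTet2. Every shTet2 library lay below every shScr library, an order that 0.253% of all classes showed in this direction and 0.253% in the other. The difference was −0.39 (SE 0.18, interval −0.77 to −0.01), with an exact permutation p of 0.00794, the smallest that 5 against 5 libraries can give. In limma, p was 0.0434 before and 1.00 after Benjamini-Hochberg adjustment. With 1 of 79, the share at the unadjusted threshold was near that of all classes. Within replicates 1 and 2 the difference was −0.13, within replicates 3 to 5 it was −0.57, and without the 4 libraries with most receptor reads it was −0.42. In shTet1, Charlie6 was at 10.11, 10.01, 10.35, 10.58 and 10.15, overlapping both other groups, with a difference from shScr of −0.14 (SE 0.18).

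The abundant classes differed little in shTet2. URR1B was at 13.40, 13.38, 13.91, 13.80 and 13.42, all inside its shScr range, and differed by −0.09 (SE 0.23), as did URR1A (SE 0.25). Tigger7, at 11.82, 11.85, 12.70, 12.54 and 12.08, differed by −0.12 (SE 0.27), Charlie1a by −0.10 (SE 0.26) and Tigger5 by −0.29 (SE 0.24). Charlie20a had the lowest difference of the 79. Its shTet2 values were 5.56, 5.25, 6.46, 6.45 and 5.72, of which 3 lay below all shScr values, and the difference was −0.53 (SE 0.32, 95% confidence interval −1.20 to 0.15). Next came Kanga1a, a Tc2-type element, at −0.42 (SE 0.33). Charlie15a was highest at 0.27 (SE 0.30). Ricksha_c followed at 0.24 (SE 0.29), as did Ricksha_a, which had 10.3 reads per library, and Charlie7a was at 0.18 (SE 0.31).

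By family, 25 of 38 hAT-Charlie and 14 of 19 Tigger classes had a lower mean in shTet2, with medians of −0.08 and −0.09. Of the 9 hAT-Tip100 classes, 7 had a higher mean (median 0.09), among them Zaphod and ORSL, with differences of 0.11 and 0.10. Looper differed by −0.17 (SE 0.25) and MARNA by −0.15 (SE 0.17). Of the 79 intervals, that of Charlie6 excluded 0, and 71 lay within 1 log2 unit of it.

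Comparing the depletions with each other gave 0 of 79 classes past the adjusted threshold in limma, where 0.253% of all classes were called. At an unadjusted p under 0.05 there were 0, against 2.7% of all classes, and no member had groups apart (0.927% of all classes higher and 0.253% lower in shTet2). The median difference, shTet2 minus shTet1, was 0.08 over the 79 and 0.08 over all classes, and 53 of the 79 had a higher mean in shTet2, with 26 lower against 30.1% of all classes. This direction turned with the scaling. With centring on the median of all classes, 50 were lower (median −0.05; 61.8% of all classes), and when scaled to the repeat reads 64 were (median −0.14; 74.8%), while the median of all classes moved from 0.08 to −0.13. Both comparisons with shScr use the same 5 control libraries, so the members are set side by side here by this direct difference.

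The highest differences were in small hAT-Tip100 classes and a Tigger class. ORSL-2a was at 5.26, 5.22, 5.67, 5.56 and 5.53 in shTet2, above 4 of its 5 shTet1 values, and differed by 0.54 (SE 0.30, 95% confidence interval −0.09 to 1.18). Zaphod was at 6.83, 7.45, 8.68, 8.75 and 7.98 in shTet1 and at 8.13, 7.99, 8.72, 8.77 and 8.37 in shTet2. The gap came from replicates 1, 2 and 5, since replicates 3 and 4 were alike, and the difference was 0.46 (SE 0.34). Tigger11a differed by 0.41 (SE 0.34). Of the 9 hAT-Tip100 classes, 8 had a higher mean in shTet2 (median 0.30), while the 38 hAT-Charlie classes had a median of 0.06 and the 19 Tigger classes one of 0.11. The lowest differences were those of Charlie4z (−0.25, SE 0.24), Charlie6 (−0.25, SE 0.18) and Charlie9 (−0.24, SE 0.24). URR1B and URR1A differed by 0.02 and 0.06.

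**Figure D2:**
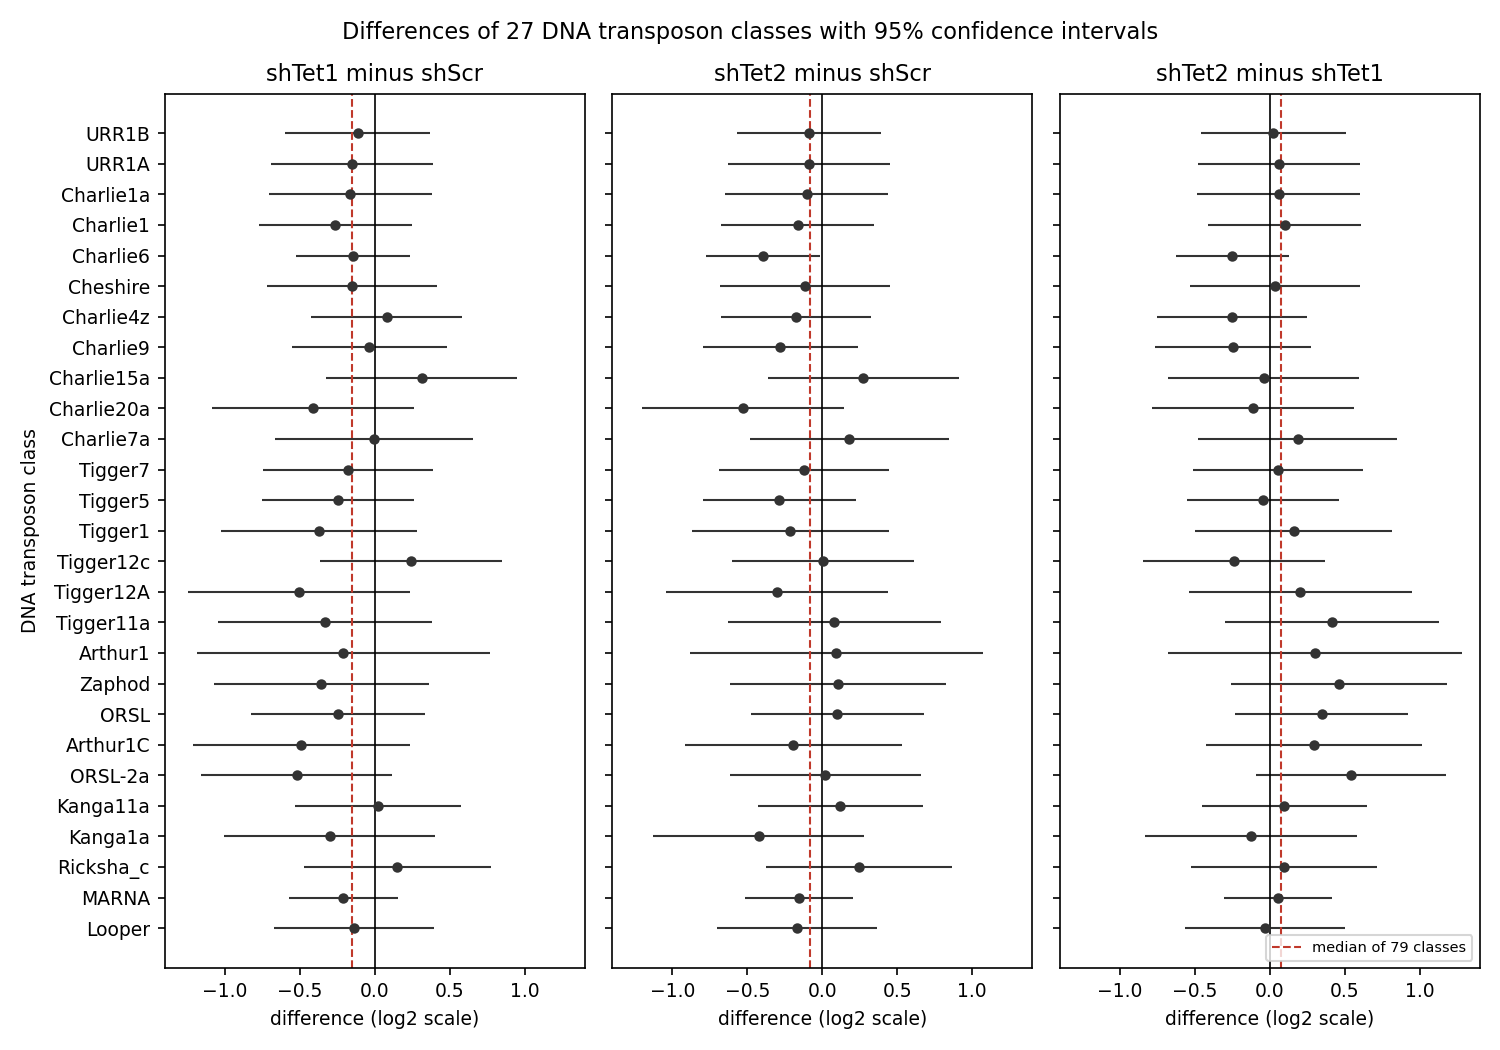
Differences between groups of the 27 named DNA transposon classes on the log2 scale, ordered by family and reads, with 95% confidence intervals from limma (5 libraries a group). The dashed line is the median of the 79 tested classes. Charlie6 in shTet2 against shScr (−0.39) is the one interval that excludes 0.

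In each comparison, 76 of the 79 classes differed between groups by less than their SD within groups, and most members shared this variation between libraries. In shScr replicate 4, 75 of the 79 classes were above their own mean over the 15 libraries, and 48 had their highest value there. The same was true of 72 and 76 classes in shTet1 replicates 3 and 4 and of 73 and 66 classes in shTet2 replicates 3 and 4. In shScr replicate 5 and shTet1 replicate 5, by contrast, 5 classes each were above their mean, and 30 classes had their lowest value in shTet1 replicate 5. A first component of the deviations from the group means held 73.2% of their variance over the 79 classes and 74.5% over all 1187. The shared movement thus held about the same share of this variance over the whole repeat table.

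**Figure D3:**
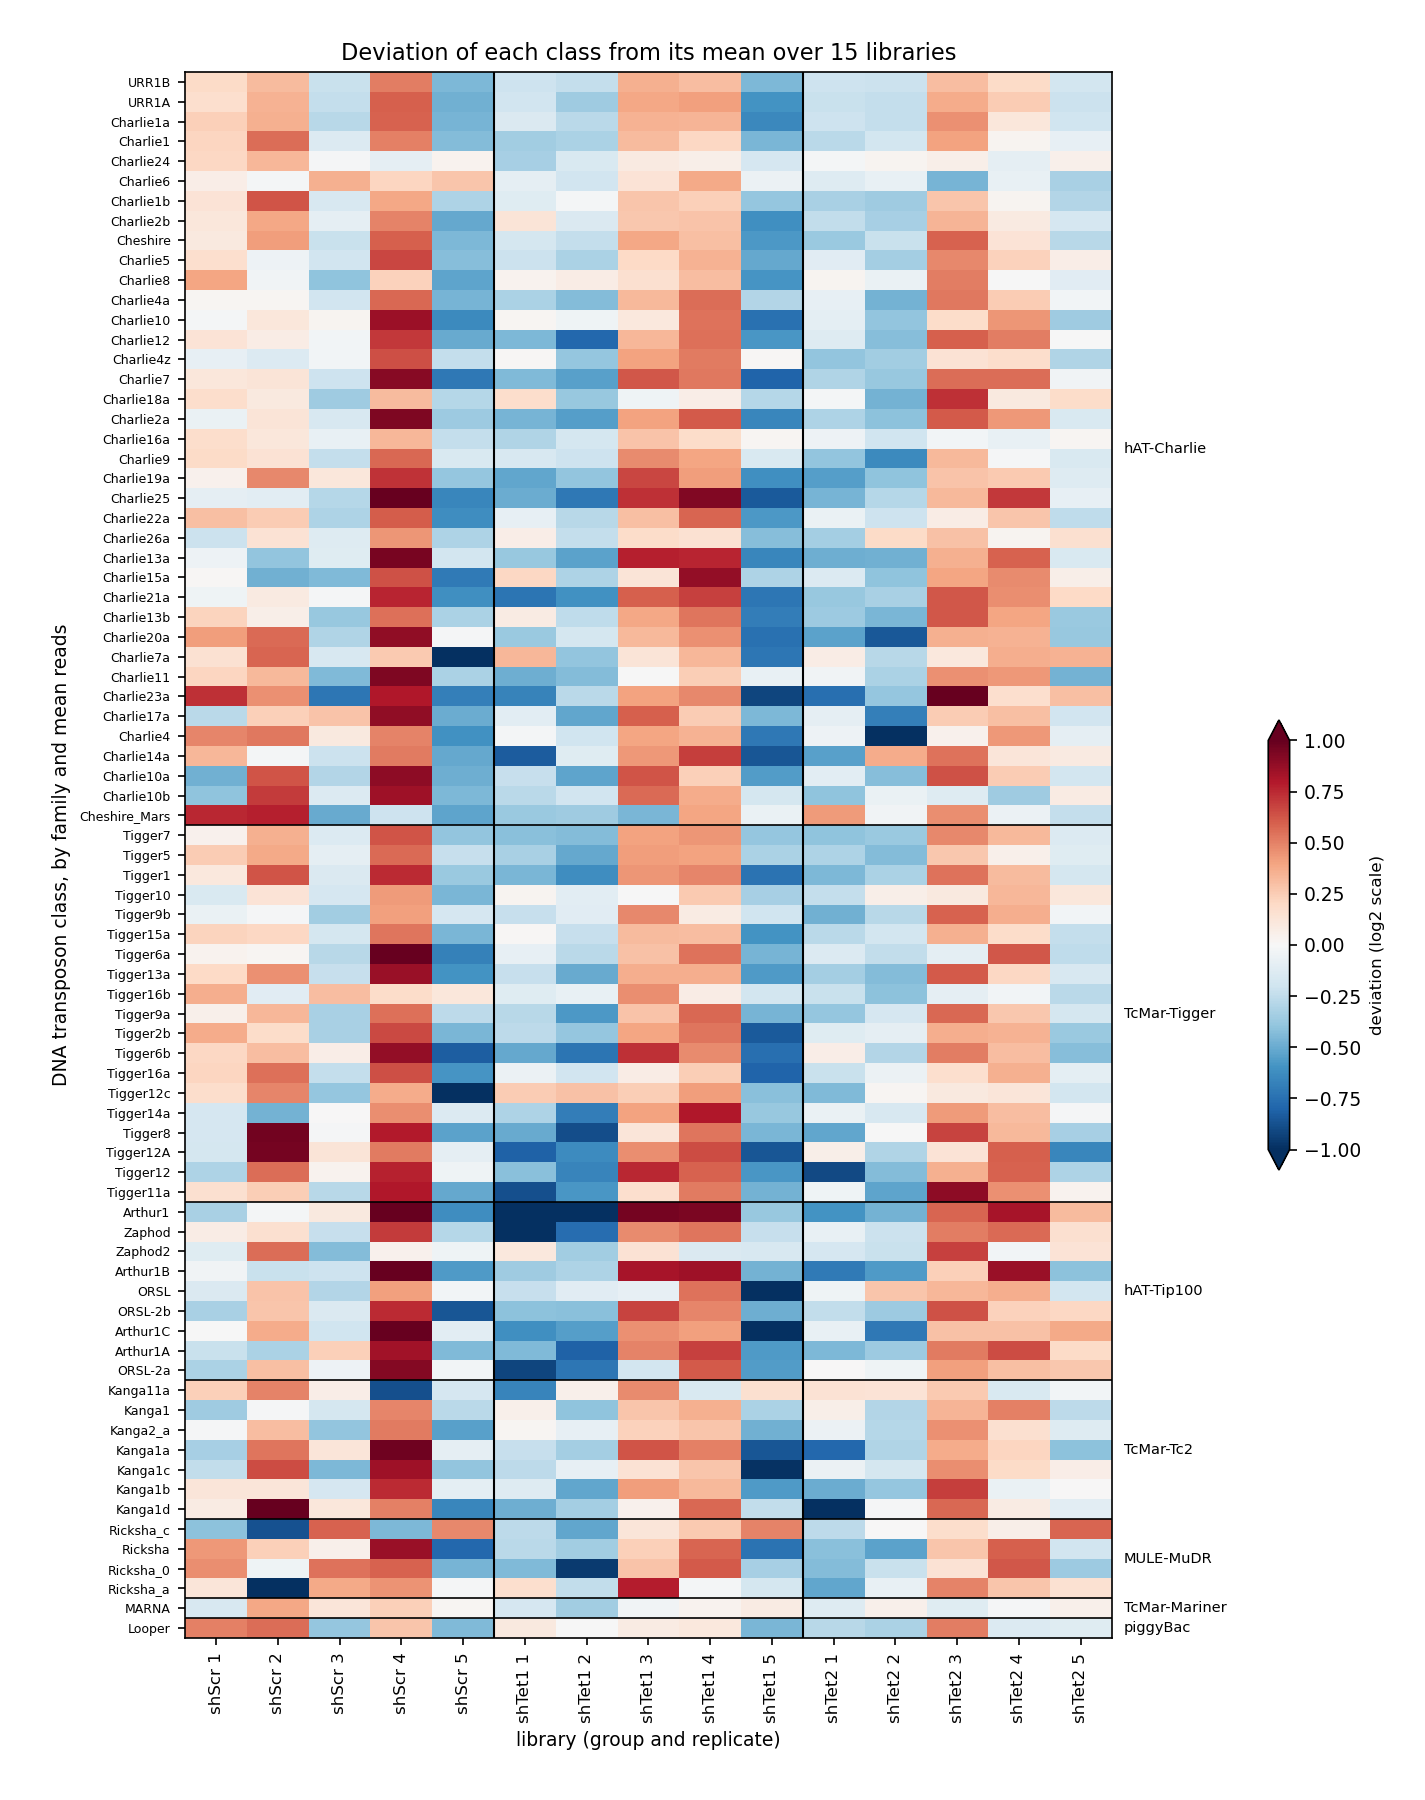
Deviation of the value of each tested DNA transposon class (row, by family and mean reads) from its mean over the 15 libraries (columns, by group and replicate), on the log2 scale with the colours ending at −1 and 1. Replicate 4 of shScr, replicates 3 and 4 of shTet1 and of shTet2 are red down nearly the whole column.

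Subtracting the median of the other DNA transposon classes in each library lowered the SD within groups of 68 of the 79 classes, and the median SD from 0.459 to 0.262. Over all classes it lowered the SD of 916 of 1187 (77.2%), and the median from 0.526 to 0.348. Several of the abundant classes followed closely. URR1A had an SD of 0.401 before and 0.0766 after, URR1B 0.340 and 0.111, Charlie1a 0.394 and 0.126, Tigger7 0.422 and 0.134, and Tigger5 0.357 and 0.152. Arthur1 had the widest spread of all, with an SD of 0.807. It ran from 6.97 in shTet1 replicate 2 to 9.27 in shScr replicate 4, and its SD remained at 0.515 after subtraction. The same subtraction lowered the SD of 51 of 55 other DNA transposon classes, named MER (median 0.400 to 0.229), of 7 of 11 MIR, L2 and L3 classes, which are old retroelements (0.318 to 0.177), and of 3 of 3 young L1 classes, the retrotransposons L1Md_T, L1Md_A and L1Md_Gf (0.448 to 0.226).

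The SD of 11 classes, named after their values were seen, did not fall, and 10 of them had over 100 reads. They included 6 of the 13 classes over 1000 reads, namely MARNA, Kanga11a, Ricksha_c, Charlie24, Charlie6 and Tigger10. The SD of Tigger10 was nearly the same before and after (0.260 and 0.262), and like most members it was highest in shScr replicate 4 (10.48), while its lowest value was in shScr replicate 5 (9.59). MARNA was among the steadiest classes, at 10.52, 11.06, 10.79, 10.91 and 10.69 in the shScr libraries. In shTet1 it was at 10.50, 10.33, 10.64, 10.71 and 10.75, and shTet2 held 10.54, 10.73, 10.55, 10.66 and 10.72. Its SD within groups was 0.164, and Charlie24 (0.145) and Charlie6 (0.186) were as steady. Subtracting the shared movement raised these SDs to 0.415, 0.390 and 0.418.

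Kanga11a, a Tc2-type element, and Ricksha_c, a MuDR-type element, had patterns of their own. Kanga11a had its lowest value, 9.57, in shScr replicate 4, where most members peaked, and was at 10.69, 10.94, 10.51 and 10.28 in the other shScr libraries. In shTet1 it was at 9.79, 10.50, 10.92, 10.29 and 10.60, and in shTet2 at 10.59, 10.58, 10.70, 10.29 and 10.42. Ricksha_c was at 9.89, 9.43, 10.89, 9.85 and 10.78 in shScr libraries, at 10.04, 9.78, 10.43, 10.56 and 10.80 after Tet1 knockdown, and at 10.04, 10.31, 10.48, 10.36 and 10.89 after Tet2 knockdown. Replicate 5 was highest in shTet1 and shTet2 and just below replicate 3 in shScr, and the groups overlapped. The 11 classes held 14.9% of the DNA transposon reads.

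**Figure D4:**
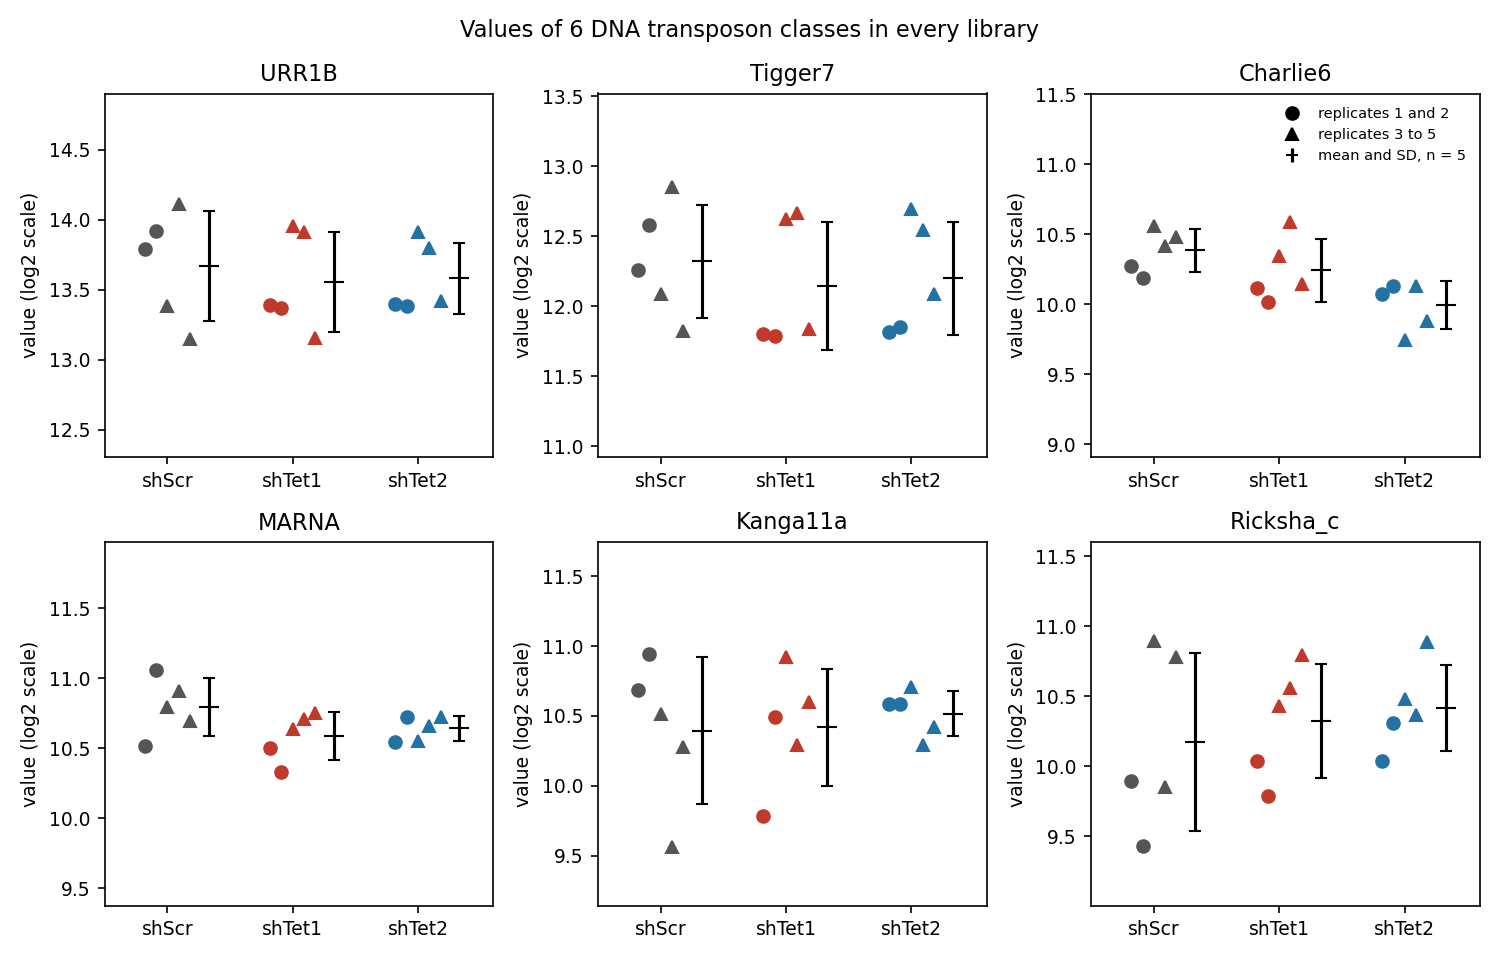
Values of 6 DNA transposon classes in each library on the log2 scale, with mean and SD of 5 libraries. URR1B and Tigger7 share the high libraries of each group, MARNA stays within 10.33 to 11.06, and Ricksha_c has its highest values in replicates 3 and 5 of shScr and in replicate 5 of shTet1 and shTet2.

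**Figure D5:**
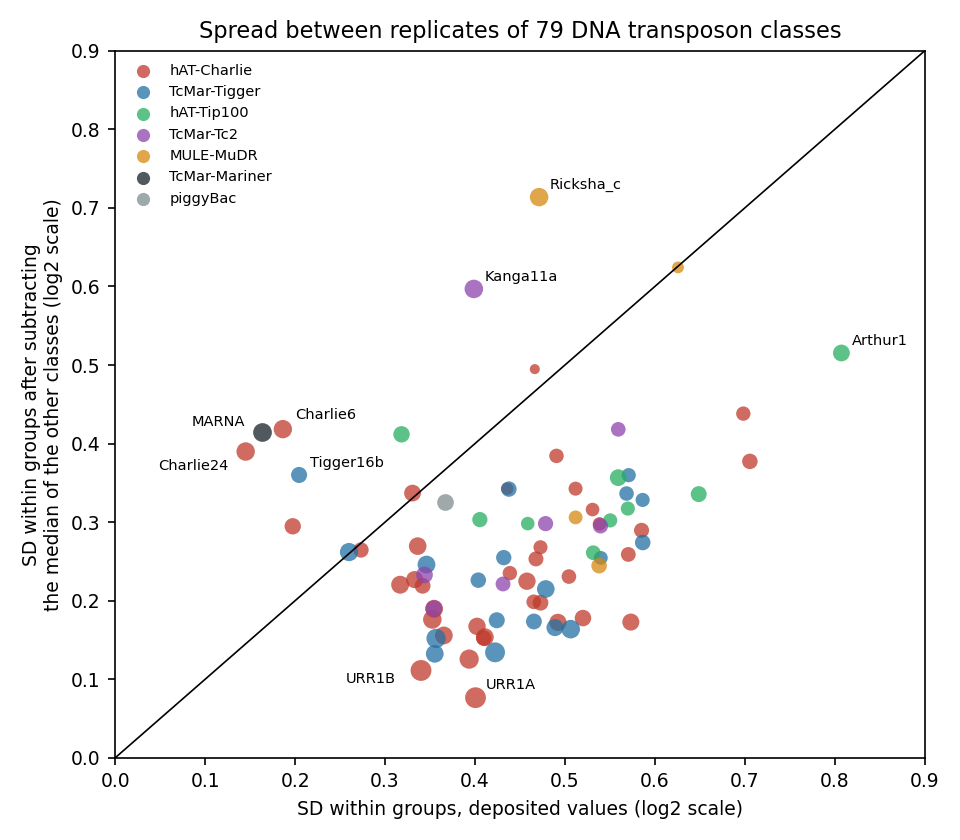
SD within groups of the 79 tested classes before (horizontal) and after (vertical) subtraction of the median of the other DNA transposon classes, on the log2 scale, with point size growing with mean reads. The 68 classes below the diagonal lost spread, and the 11 on or above it, such as Ricksha_c and Kanga11a, did not.

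The median of the fossils, inert as elements, was taken as a reference level for reads from transcribed repeat DNA. All 1187 classes were compared again after each library was set to the same DNA transposon median. A shift of equal size in all fossils is removed by this step, so it could not be detected there. Shifts of unequal size were not all removed. After the step, 53 of the 79 fossils had a lower mean in shTet1 than in shScr (median −0.06), against 511 of all 1187 classes. In shTet2, 49 fossils had a higher mean than in shScr (median 0.04) and 58 a higher mean than in shTet1 (median 0.11). Neither depletion gave a call against shScr in limma (0% of all classes, Benjamini-Hochberg adjusted), and an unadjusted p under 0.05 was found for 3.12% of them in shTet1 and 6.23% in shTet2. Between the depletions there were 7 calls (0.59%), each with a higher level in shTet2 and none of them a DNA transposon fossil. They were MERVL-int, MT2_Mm, MERVL_2A-int, MT2C_Mm, ORR1A3-int, MT-int and MER89, of which the first pair are the body and the long terminal repeat of the endogenous retrovirus MERVL. On the deposited values 3 were called. Most classes were higher in shTet2 on the relative scale, so the direction of the calls was that of the table as a whole. Against shTet1, 901 of the 1187 classes had a higher mean (median 0.11), and 830 on the deposited values (median 0.08). Against shScr these counts were 994 (median 0.16) and 721 (median 0.04).

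Relative to the fossil median, MERVL-int differed between shTet2 and shTet1 by 2.19 (SE 0.38), past the threshold of limma (Benjamini-Hochberg adjusted p = 0.0124) and close to the 2.15 (SE 0.38) without it. MERVL_2A-int differed by 1.11 (SE 0.17, adjusted p = 0.00634 in the same limma test), where its SE on the deposited values was 0.24. The subtraction thus tightened this class, whereas the SD of MERVL-int within groups hardly changed (0.675 and 0.640). The count of 7 was 46 with the replicate number as a block, 45 of them higher, and 2 to 9 when 1 library was left out, with the lowest count without shTet2 replicate 2. It was 0 without the 4 libraries with most receptor reads, a fit with 3 shTet1 libraries. On the deposited values, leaving out these libraries gave 10 calls, against 3 in the main fit. L1Md_T, a young L1 class, differed by −0.46 relative to the fossils in shTet1 (SE 0.17, 95% confidence interval −0.82 to −0.09, exact permutation p = 0.0238), against −0.54 (SE 0.27) without the reference. In limma over all classes this did not pass (Benjamini-Hochberg adjusted p = 0.998). L1Md_A and L1Md_Gf differed by −0.39 and −0.38 (SE 0.16 each).

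Relative to the median, 0 of the 79 fossils were called in any comparison (0%, 0% and 0.59% of all classes). The median is their own, so a shift of equal size in all fossils could not be called. In shTet1, Tigger1 (−0.28, SE 0.12) and Charlie15a (0.40, SE 0.18) had unadjusted limma p-values of 0.0353 and 0.0377. In shTet2, Charlie15a differed by 0.39 (SE 0.18) and Charlie20a by −0.41 (SE 0.16), with unadjusted limma p-values of 0.0412 and 0.0241. At an unadjusted p under 0.05 there were thus 2 of 79 fossils in each of these comparisons, against 3.12% of all classes in shTet1 and 6.23% in shTet2. Between the depletions, ORSL-2a (0.57), Zaphod (0.49), Tigger11a (0.45) and Charlie12 (0.33) were past that threshold, which 7.08% of all classes passed. No Benjamini-Hochberg adjusted limma p of these was below 0.444. Charlie6, past the unadjusted threshold on the deposited values, was at −0.27 here (SE 0.24), not past it.

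Transposases have also been taken into service by the host, and genes derived from or related to them are called transposase-derived genes here. Some are relatives of the fossils, while others are related to Harbinger, Transib or P elements, families with no class among the fossils. Of 25 transposase-derived genes listed, 21 were in the gene table and 20 were tested among 19490 genes. In shTet1 against shScr, 0 of 20 were called in limma (0.0718% of all genes), and 4 had an unadjusted p under 0.05 (11.8% of all genes). In shTet2 against shScr, 0 of 20 were called (0.39%), and 1 had an unadjusted p under 0.05 (11.6%). Between shTet2 and shTet1, 1 was called (4.24%) and 3 had an unadjusted p under 0.05 (15.7%). Median differences of the list were −0.03, 0.00 and 0.01, close to 0.01, 0.04 and 0.01 over all genes.

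The one called was Pogk (chromosome 1, 168314753 to 168339994, mm9, minus strand), a pogo-derived gene with a KRAB domain and thus a relative of Tigger. It was at 6.82, 6.75, 6.83, 7.19 and 6.53 in shTet1 and at 7.59, 7.25, 7.67, 7.81 and 7.36 in shTet2, while shScr libraries were at 7.08, 7.20, 6.74, 7.38 and 7.12. All shTet2 libraries were above all shTet1 libraries, as for 3.6% of all genes, with shScr between and overlapping both. The difference, shTet2 minus shTet1, was 0.71 (SE 0.17, exact permutation p = 0.00794), with limits of 0.36 and 1.07 and an adjusted p of 0.0201 in limma (Benjamini-Hochberg). Against shScr it was −0.28 in shTet1 and 0.43 in shTet2 (adjusted p = 0.568 and 0.310 in limma). Leaving out shTet1 replicate 2 raised the adjusted limma p to 0.0542, and leaving out replicate 1 or 4 of shTet2 raised it to 0.0518 or 0.0605, with differences of 0.69, 0.70 and 0.64 and thus about as large. The call was also lost without the 4 libraries with most receptor reads (0.0688), where the difference was 0.77. Exons of Tada1 on the opposite strand cover 0.146% of its exonic bases.

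Pgbd1 (chromosome 13, 21513144 to 21532927, minus strand), a relative of piggyBac, went the other way, at 7.52, 7.03, 7.33, 7.58 and 6.94 in shTet1 but at 6.68, 6.94, 6.47, 6.89 and 6.60 in shTet2. The nearest values of the groups were both 6.94 without overlapping, as for 2.45% of all genes, and the difference was −0.57 (SE 0.17, Benjamini-Hochberg adjusted p = 0.0684 in limma). It passed once the replicate number was a block (adjusted p = 0.0149 in limma). Exons of 4930470G03Rik on the opposite strand cover 15.0% of its exonic bases, and reads of such a pair cannot be told apart where counting ignores strand. Thap2, of the THAP family related to P element transposase, differed by −0.55 in shTet1 against shScr (SE 0.19, limma with Benjamini-Hochberg adjusted p = 0.240), which also passed with the block (0.0414). Thap3 differed by 0.68 in shTet1 (SE 0.26).

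The remaining named genes were well expressed and differed less. Pogz, another pogo relative, had 1617 reads per library and differed by −0.21 in shTet1 and 0.00 in shTet2. Zbed4, of hAT descent, had 1096 reads and differed by −0.06 and 0.10, and Tigd2, a Tigger-derived gene, had 782 reads and differed by −0.07 and 0.11. Harbi1, from the Harbinger superfamily, was higher in all 5 shTet1 libraries than in any shScr library, as were 1.5% of all genes. Its difference was 0.23 (SE 0.13, exact permutation p = 0.00794, limma with Benjamini-Hochberg adjusted p = 0.514). Thap11, required in ESCs for self-renewal, differed by −0.18 and −0.05.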

How the data were processed

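Directional, rRNA-depleted RNA-seq libraries (15, in 3 groups of 5 by the labels) were read from the repeat and gene tables. Per the submitters' notes and the study's methods, reads were trimmed (Trim Galore 0.3.3), aligned to mm9 (TopHat2 2.0.9) with multi-mapping reads kept at a single position, counted in Seqmonk per gene and RepeatMasker class, and normalised with DESeq2. The deposited tables hold variance-stabilised values by the authors, which approach log2 for well-covered features and compress differences of low ones. Values at the table minimum have no reads. Inverted, 100% of the low values checked came out as whole reads, to within 0.02. Reads multi-mapping between copies are shared by chance, and the use of strand in counting was not given in the sources used here. Reads per library set the counting error of each value, which is only part of the spread between libraries.

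Differences were tested with limma 3.58.1 in R 4.3.3 (lmFit, eBayes with trend, two-sided) in 1 fit of all 15 libraries with group as the only term, over features above the minimum in at least 5 libraries, with Benjamini-Hochberg adjustment over all 1187 classes or 19490 genes. The code was tested on simulated data in which classes varied independently, without the shared movement between libraries described above. For single values an exact two-sided permutation test over 252 arrangements was added. Named classes were, by rule, the one with most reads of each name, the 10 with most reads, and per comparison the 3 lowest and 3 highest at least 2 units above the minimum and any with an unadjusted p under 0.05. Members were taken by name alone, but this rule, the lists and the tests were chosen with earlier results of these data known. Same-numbered libraries deviated together across genes in shTet1 and shScr (r = 0.374 to 0.657) and in shTet2 and shTet1 (0.330 to 0.731). This pairing comes from the data and not from the labels. The main limma fit and the permutation tests did not use it, and the replicate number was a block only in alternative runs. In shTet2 and shScr, r across genes was 0.00789 to 0.769, with the lowest value in replicate 3. Across repeat classes the ranges were 0.313 to 0.809, 0.456 to 0.820 and −0.0539 to 0.838, in the same order of comparisons. No 2 replicates agreed within sampling noise (chi-square per degree of freedom at least 97.8 over 30 pairs). Gene positions are from an mm9 annotation.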

Additional observations from a re-analysis of the deposited data

Results flagged for a closer look

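Groups of 5 libraries were checked for a single distant library in each named class, gene and summary value, and 6 groups (5.13%) held one, where chance gives about 5%. Looper lay at 7.76 in shTet1 replicate 5, where the nearest of the other 4 was 8.22, and at 8.73 in shTet2 replicate 3, where the nearest was 8.10. Tigger12c lay at 6.45 in shTet1 replicate 5, with the nearest at 7.11. Charlie4z lay at 9.42 in shScr replicate 4, with the nearest at 8.75. Among the transposase-derived genes, Thap11 lay at 8.53 in shTet2 replicate 4, with the nearest at 9.25, and Thap3 at 5.47 in shTet2 replicate 5, with the nearest at 6.02. Of these libraries, shScr replicate 4 and shTet2 replicate 4 were among the 4 with most receptor reads.

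Pogk differed between the shTet2 and shTet1 libraries. The difference, 0.71, passed in limma, while neither knockdown passed against shScr. This call was lost without shTet1 replicate 2, without shTet2 replicate 1 or 4, and without the 4 libraries with most receptor reads.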

How the results depend on the processing

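The count of DNA transposon classes called was 0 in all 3 comparisons under every alternative run, except for array weights between shTet2 and shTet1, with 13 called, all higher, where 44.7% of all classes were called. Their median difference kept its direction in shTet1 (−0.27 to −0.03 when 1 library was left out) but not in shTet2 (−0.22 to 0.07) or between the depletions (−0.02 to 0.17).

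Libraries of the same number deviated together in shTet1 against shScr and in shTet2 against shTet1, a pairing that the main fit did not use. With the replicate block, 0 fossil classes were called in each comparison. Relative to the fossil median, the block gave 46 classes between the depletions and 2 in shTet2 against shScr, in place of 7 and 0. Leaving out 1 library gave 2 to 9 between the depletions, with 4 without shTet1 replicate 2 or shTet2 replicate 1, 4 or 5, and leaving out the 4 libraries with most receptor reads, an alternative chosen after seeing the data, gave 0. On the deposited values, leaving out the same 4 libraries gave 10 calls between the depletions (0.842% of all classes), against 3 in the main fit. The fits without these libraries have fewer libraries, and the cause of either change was not tested.

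Of the transposase-derived genes, 1 was called with the block in shTet1 against shScr (Thap2). Between the depletions, 2 (Pogk and Pgbd1) were called with the block, without the variance trend, with centring, with array weights and with replicates 1 and 2 against 3 to 5 as a batch term. Leaving out 1 library gave 0 to 2, and leaving out the 4 libraries gave 0. At the spread of these libraries, the 95% intervals of fossil classes had a median half-width of 0.62, and low classes are also limited by their reads.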
